A study of Mus musculus with 17 samples.

Results

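The genes described here encode 5 transcription factors of the macrophage lineage, Spi1, Runx1, Maf, Mitf and Tfec. They were followed through ChIP-seq peak lists for 5 other factors in bone marrow-derived macrophages of C57BL/6 mice, grown in L929-conditioned medium and used on day 7 of differentiation. A gene was given every peak whose summit fell inside its mm10 span or no more than 20 kb beyond either end. By this rule 242 of the 144384 peaks in 16 ChIP lists lay near the 5 genes, which are 5 of 21887 protein-coding genes. Merging peaks of all lists that overlapped by at least 1 bp gave 81 distinct sites near them, of 55577 sites in the genome.

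STAT6 was mapped 2 h after interferon gamma (IFNg, 100 ng/ml) given with interleukin 4 (IL4, 10 ng/ml) and 2 h after IL4 alone. IRF1, JUNB and CEBPB were each mapped 4 h after IFNg+IL4, 4 h after IFNg, and in untreated cells. MYC was mapped 4 h and 2 h after IFNg+IL4, 4 h and 2 h after IL4, and in untreated cells. The labels of the IRF1, JUNB, CEBPB and MYC libraries add that the cells were wild type. Each group was 1 library without a replicate, so no p-value is given, every comparison is between those libraries, and exact Clopper-Pearson 95% intervals cover counting error only.

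Spi1 encodes PU.1, the ETS factor that opens much of the enhancer repertoire of myeloid cells, and Runx1 encodes a DNA-binding partner of CBFB needed for blood cell formation. Maf encodes c-MAF, a leucine zipper factor of mature macrophages, while Mitf and Tfec encode related helix-loop-helix leucine zipper factors, Tfec being largely restricted to myeloid cells and known to be inducible by IL4. STAT6 carries the signal of the IL4 receptor, IRF1 is induced by IFNg, JUNB is a subunit of AP-1, CEBPB is a myeloid leucine zipper factor, and MYC is a growth regulator that binds E-boxes. A peak reports where a factor was cross-linked, and no RNA was measured here.

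The lists were of very unequal length, between 244 peaks (untreated IRF1) and 24927 peaks (STAT6, IL4), and read totals per library were not used here. The untreated JUNB list had been cut on p and not on q, and 5355 of its 9229 peaks had a −log10 q of at least 2, which every peak of the other lists had. None of the 128 input peaks lay near the 5 genes. As a check of the cell type, all 8 macrophage marker genes examined, Adgre1, Cd68, Itgam, Fcgr1, Mertk, Lyz2, Cd14 and Cx3cr1, lay near a STAT6 peak in both STAT6 lists. Of 8 markers of other cells only Ms4a1 and Pecam1 did, and Ncr1, Ly6g, Mpo and Col1a1 had no peak in any of the 16 lists. Among all genes, 46.0% lay near a STAT6 peak with IFNg+IL4 and 49.8% with IL4. CEBPB peaks lay near all 8 macrophage markers in each state, but MYC peaks with IFNg+IL4 lay near only 2 at 4 h and at 2 h. Macrophage markers had peaks in a median of 12 lists, markers of other cells in a median of 0.5 and all genes in a median of 4.

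RefSeq (GRCm38.p6) gives promoter windows, from 250 bases before to 50 after an annotated start, for 3 of the 5 genes, 6 windows in all. Peaks overlapped 4 of them, and these are shown because they are the places where binding met an annotated start. Capitals mark core motifs found on either strand. The motifs searched were AP-1 (TGANTCA), C/EBP (TTGCNNAA), IRF (GAAANNGAAA), STAT6 (TTCNNNNGAA), E-box (CACGTG) and PU.1 (GGAAGT), with N for any base, and no 2 matches overlapped.
Tfec start, chr6:16898392-16898691, minus strand: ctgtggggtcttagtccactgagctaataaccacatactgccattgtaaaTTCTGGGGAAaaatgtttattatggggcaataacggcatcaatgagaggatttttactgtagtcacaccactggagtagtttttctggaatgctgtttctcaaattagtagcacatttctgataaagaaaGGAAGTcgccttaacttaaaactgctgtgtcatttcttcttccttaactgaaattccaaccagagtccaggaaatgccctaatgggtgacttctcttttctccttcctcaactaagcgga
Runx1 upstream start, chr16:92826025-92826324, minus strand: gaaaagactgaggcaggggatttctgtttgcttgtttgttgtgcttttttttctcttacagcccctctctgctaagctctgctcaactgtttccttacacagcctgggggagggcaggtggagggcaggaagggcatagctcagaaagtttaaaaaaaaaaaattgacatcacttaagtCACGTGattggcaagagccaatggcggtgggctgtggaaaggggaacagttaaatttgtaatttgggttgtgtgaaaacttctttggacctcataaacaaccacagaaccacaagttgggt
Runx1 downstream start, chr16:92697280-92697579, minus strand: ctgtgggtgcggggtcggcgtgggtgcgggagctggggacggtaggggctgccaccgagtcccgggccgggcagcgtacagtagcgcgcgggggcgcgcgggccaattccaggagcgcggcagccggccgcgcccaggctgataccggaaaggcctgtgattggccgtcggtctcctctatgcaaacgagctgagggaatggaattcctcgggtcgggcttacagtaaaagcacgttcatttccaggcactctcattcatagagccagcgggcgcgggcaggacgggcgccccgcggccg
Mitf first start, chr6:97806808-97807107, plus strand: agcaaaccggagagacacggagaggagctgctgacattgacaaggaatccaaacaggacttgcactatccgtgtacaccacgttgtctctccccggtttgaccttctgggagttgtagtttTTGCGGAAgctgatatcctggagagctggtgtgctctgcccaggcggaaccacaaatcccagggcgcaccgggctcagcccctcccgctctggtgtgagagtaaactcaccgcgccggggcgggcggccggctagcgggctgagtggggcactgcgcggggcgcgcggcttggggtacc

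The Tfec window holds a STAT6 motif 200 bases before the start and a PU.1 motif 70 bases before it. Of all 32851 RefSeq windows, 6.95% held the STAT6 motif and 23.8% the PU.1 motif. The Runx1 upstream window holds an E-box 71 bases before the start, as 7.15% of windows did, and the Mitf window a C/EBP motif 129 bases before it, as 10.8% did. AP-1 and IRF motifs, in 7.81% and 3.44% of all windows, were in none of the 4, and the Runx1 downstream window matched no motif. A match describes letters and not binding.

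Peaks of all 5 factors lay near the 5 genes, but unevenly. Spi1 had peaks in 13 of the 16 lists, Mitf in 12, Runx1 in 11, Tfec in 8 and Maf in 4, while the median protein-coding gene had peaks in 4 lists. As many lists as for Spi1 were reached by 2.7% of all genes, as many as for Mitf by 5.61%, for Runx1 by 9.38%, for Tfec by 26.0% and for Maf by 52.6%. The genes differ in span, which is 225 kb for Runx1, 214 kb for Mitf, 67.5 kb for Tfec, 33.4 kb for Spi1 and 3.64 kb for Maf, and a longer window can hold more peaks.

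**Figure D1:**
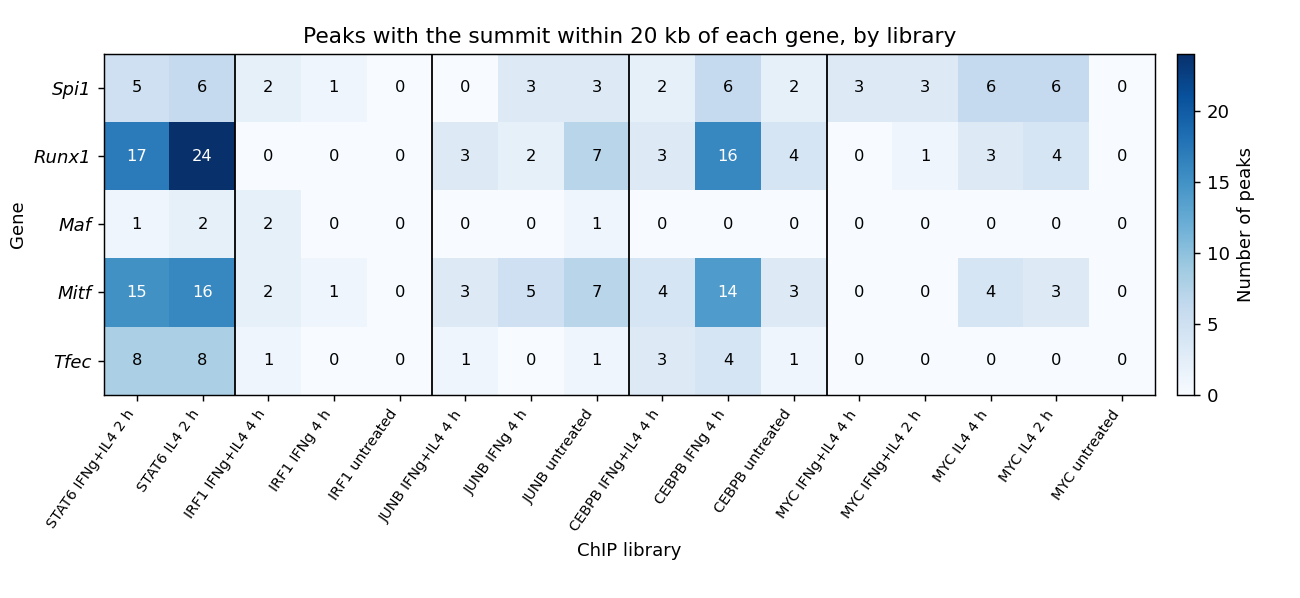
Number of peaks (color and digit) with the summit within 20 kb of each gene (rows) in each ChIP library (columns, 1 library each). Runx1 and Mitf hold most STAT6 and CEBPB peaks, with windows of 265 and 254 kb out of 744 kb. Tfec and Maf have no MYC peak. Untreated IRF1 and MYC have none at any of the 5 genes, and have one near 2.47% and 4.72% of all genes.

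Of the 81 sites, 70 (86.4%) lay inside a span, 8 below it and 3 above it, and the spans made up 73.1% of the windows. Runx1 held 34 sites, all inside its span, Mitf 25, Spi1 11, Tfec 8 and Maf 3. The Mitf sites were crowded at the low-coordinate end, where its first start is. Of the 25, 21 lay up to 60.33 kb from that end, then 105 kb followed without a site, and 4 lay beyond. In Tfec, 6 of 8 sites lay in the stretch from 53.14 to 67.76 kb, next to its start, which is at the high-coordinate end.

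STAT6 was at 56 of the 81 sites (69.1%, against 51.5% of all sites in the genome), CEBPB at 37 (45.7%, against 38.7%), JUNB at 23 (28.4%, against 22.8%), MYC at 15 (18.5%, against 25.2%) and IRF1 at 7 (8.64%, against 15.0%). At least 2 factors were listed at 34 sites (42.0%, against 34.0%) and at least 3 at 18 sites (22.2%, against 14.1%). No site had all 5. JUNB sites were almost always STAT6 sites as well, 21 of 23 (91.3%), against 58.5% over the genome. Both JUNB shares include untreated JUNB peaks below a −log10 q of 2, as do the counts of factors per site. Near the 5 genes 11 of the 19 untreated JUNB peaks reached that value, and the shares without the others were not computed. Sites are chains of overlapping peaks, so factors listed at the same site need not overlap each other. The shares of factors were not computed with summits within 150 bp. STAT6 alone was listed at 24 sites (29.6%, against 24.0% of all sites in the genome), CEBPB alone at 14 (17.3%, against 18.8%) and MYC alone at 6 (7.41%, against 11.5%).

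STAT6 peaks lay near all 5 genes in both lists, and most sites were in both. With IFNg+IL4 there were 17 peaks at Runx1, 15 at Mitf, 8 at Tfec, 5 at Spi1 and 1 at Maf. With IL4 there were 24, 16, 8, 6 and 2 at the same genes. A STAT6 peak lay near 46.0% of all genes with IFNg+IL4 and near 49.8% with IL4. Per 100 kb of window the 5 genes held 6.19 STAT6 peaks with IFNg+IL4 and 7.53 with IL4, against 1.19 and 1.39 over all genes.

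Of 56 STAT6 sites in the pair, 1 was in the IFNg+IL4 list only, 43 in both and 12 in the IL4 list only, so 76.8% were shared (interval 63.6 to 87.0%). Over the genome 58.5% of sites were shared, 14.6% were in the IFNg+IL4 list only and 26.9% in the IL4 list only. All 8 Tfec sites were shared, 5 of 6 at Spi1, 13 of 16 at Mitf, 16 of 24 at Runx1 and 1 of 2 at Maf. The 12 peaks listed with IL4 only were lower in the IL4 list by their median, though some stood high. Their median rank was 69.8% of the way down the list, and that of the 44 IL4 peaks in shared sites was 34.9%.

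The strongest STAT6 peak near any of the 5 genes was at the start of Tfec, in the site chr6:16898161-16899032. In each list peaks were ranked by −log10 p from 1, the highest, and folds and −log10 q are the authors' values per peak. With IFNg+IL4 this peak had rank 71 of 21481, a fold enrichment of 66.0 and a −log10 q of 338, and with IL4 rank 126 of 24927, 64.2-fold and 328. The summits lay 238 bases before the Tfec start with IFNg+IL4 and 227 with IL4, and 42 and 32 bases from the center of the STAT6 motif printed above. STAT6 peaks overlapped 8.08% of all RefSeq promoter windows with IFNg+IL4 and 9.94% with IL4.

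The same Tfec site held CEBPB in all 3 states, with folds of 30.0 (IFNg+IL4, rank 92 of 6278), 27.7 (IFNg, rank 1958 of 21499) and 7.45 (untreated, rank 3125 of 5540). It also held IRF1 and JUNB with IFNg+IL4, at rank 5137 of 8226 and rank 1632 of 5556. Neither factor had a Tfec peak with IFNg, and untreated JUNB had one elsewhere, in the site chr6:16891681-16892232. Of the 3 genes with RefSeq windows, Tfec was the only one with 4 factors at a start. A further Tfec site, chr6:16883502-16884442 inside the gene, had STAT6 at rank 168 (IFNg+IL4) and 267 (IL4), with folds of 57.9 and 56.6. It also had CEBPB at rank 915 with IFNg+IL4 and 3370 with IFNg, but not in untreated cells. In chr6:16889368-16889950, the third of the sites with the most lists, STAT6 stood at rank 2763 with IFNg+IL4 and 2101 with IL4.

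**Figure D2:**
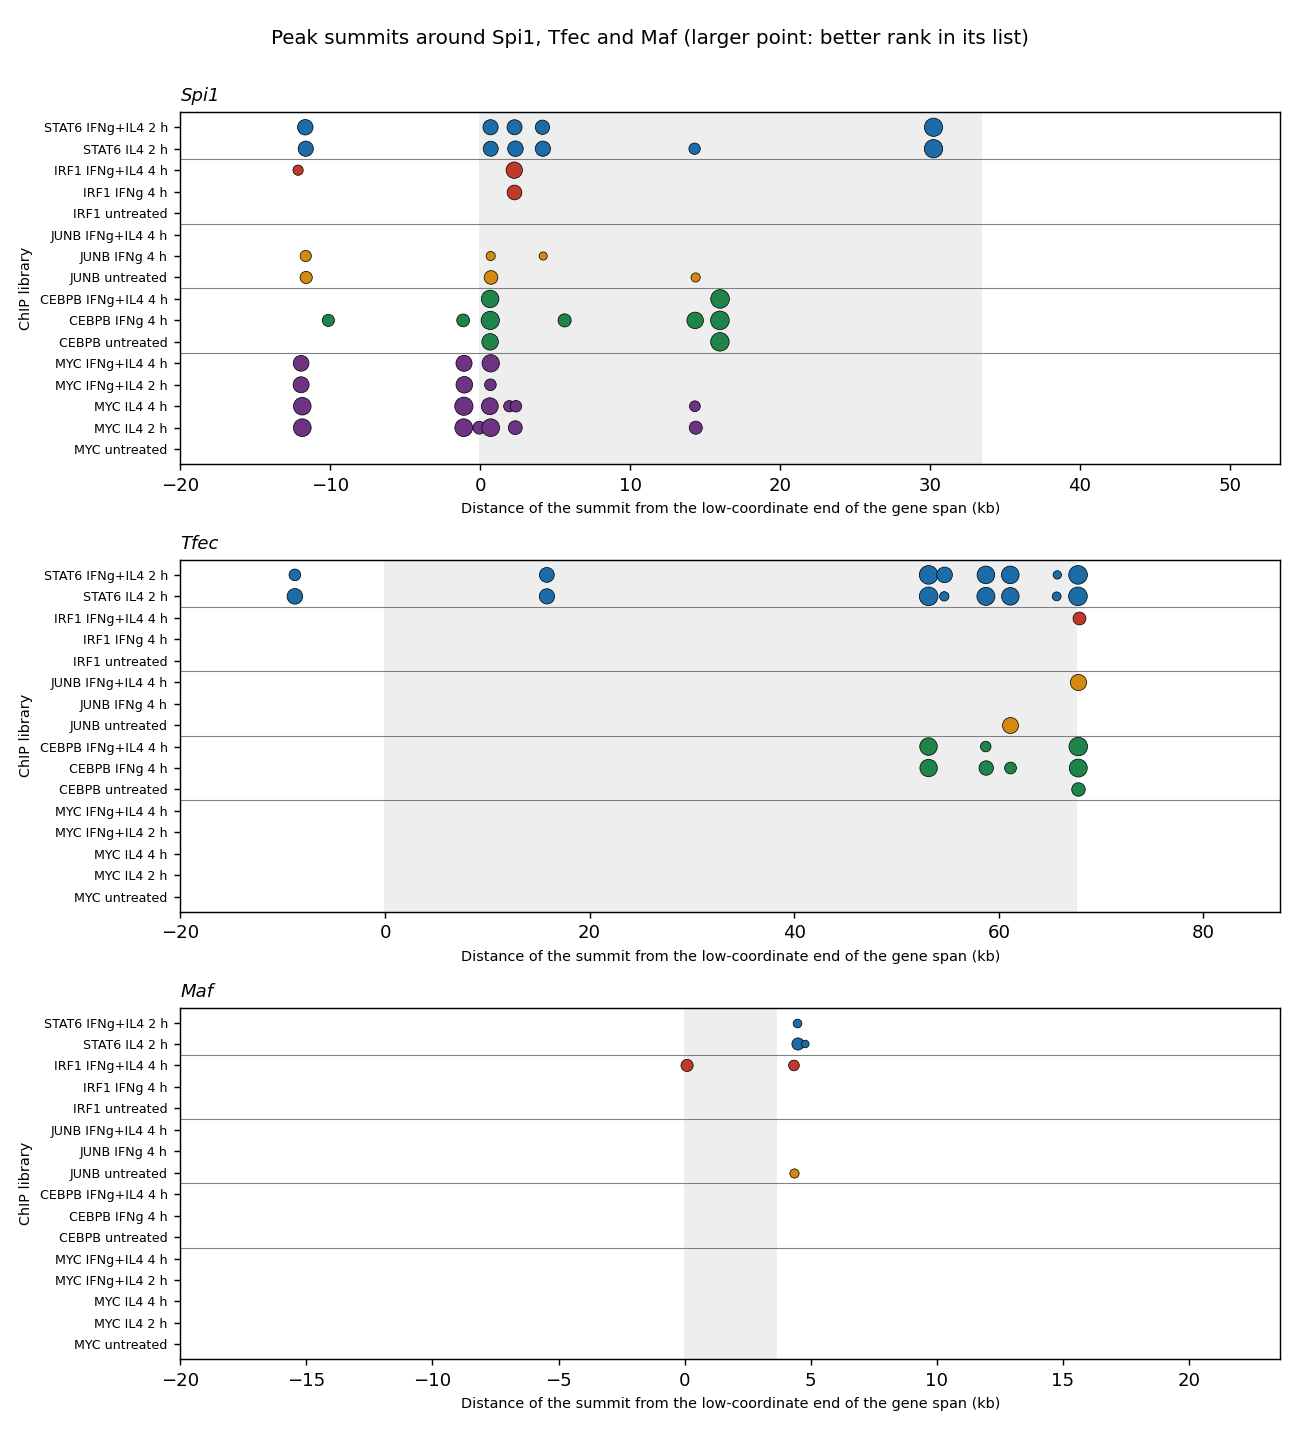
Summits of all peaks near Spi1, Tfec and Maf by library (rows, 1 library each), as distance in kb from the low-coordinate end of each gene span (grey). A larger point has a better rank in its own list, colors mark the factors, and all Tfec sites carry STAT6 in both lists while MYC is listed at Spi1 alone of the 3.

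At Runx1 the strongest STAT6 peak was inside the gene, in chr16:92786739-92787470, with rank 400 and 54.9-fold with IFNg+IL4 and rank 517 and 57.0-fold with IL4. MYC was listed there too, with IFNg+IL4 at 2 h and with IL4 at 4 h and 2 h. The Runx1 upstream start lay in the site chr16:92825690-92826242, which had STAT6 in both lists (rank 4470 with IFNg+IL4 and 3686 with IL4), CEBPB with IFNg and JUNB in untreated cells. MYC was not listed at this start although its window holds an E-box. At Spi1 the strongest STAT6 peak was in chr2:91112341-91112921, near the high-coordinate end, at rank 1205 with IFNg+IL4 and 1012 with IL4, with no other factor.

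Maf, the shortest of the 5 genes, had 6 peaks in 4 lists, beside a median of 5 peaks in 4 lists over all genes. Per 100 kb of window it held 4.58 IRF1 peaks with IFNg+IL4, against 0.454 over all genes. That was the most of the 5 genes, but from 2 peaks in a 43.6 kb window, and Spi1 and Mitf had 2 each. The 2 Maf peaks stood at rank 5636 and 6564 of 8226. Of its 3 sites, chr8:115707448-115707978, 0.76 kb above the gene, had STAT6 in both lists, IRF1 with IFNg+IL4 and JUNB in untreated cells. All 4 peaks were in the lower part of their lists, STAT6 at rank 19985 of 21481 with IFNg+IL4 and 17053 of 24927 with IL4, and the JUNB peak had a −log10 q of 0.0638. The site chr8:115703210-115703461 held IRF1 with IFNg+IL4 only, and chr8:115708038-115708191 STAT6 with IL4 only. Neither CEBPB nor MYC had a peak near Maf.

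IRF1 had few peaks near the 5 genes. It had 7 peaks with IFNg+IL4, 2 at each of Spi1, Maf and Mitf and 1 at Tfec, then 2 with IFNg, 1 each at Spi1 and Mitf, and none in untreated cells. An IRF1 peak lay near 29.7% of all genes with IFNg+IL4, 18.0% with IFNg and 2.47% in untreated cells. Per 100 kb the 5 genes held 0.941 IRF1 peaks with IFNg+IL4 and 0.269 with IFNg, against 0.454 and 0.232 over all genes. Runx1, with the longest window of the 5, had no IRF1 peak in any state.

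In the pair IFNg+IL4 against IFNg, 5 IRF1 sites were in the IFNg+IL4 list only, 2 in both and none in the IFNg list only, while over the genome 51.1% were in the IFNg+IL4 list only and 2.41% in the IFNg list only. The shared share was 28.6% (interval 3.67 to 71.0%), against 46.4% over the genome. With both lists cut to the same number of strongest peaks only the 2 shared sites were left, while over the genome 65.9% of sites were shared at that setting. Both sites of the pair IFNg against untreated were in the IFNg list only, as were 94.2% of sites over the genome, where 0.309% were in the untreated list only.

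The shared sites held the strongest IRF1 peaks. In chr6:97804420-97804883, 2.36 kb below Mitf, IRF1 had rank 1189 of 8226 and 18.5-fold with IFNg+IL4, and rank 747 of 4189 and 16.3-fold with IFNg, and no other factor was listed. In chr2:91084281-91085001, 2.29 kb from the low-coordinate end of the Spi1 span and inside it, IRF1 had rank 2283 with IFNg+IL4 and 1888 with IFNg. This Spi1 site also had STAT6 in both lists and MYC with IL4 at 4 h and 2 h.

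JUNB peaks near the 5 genes numbered 7 with IFNg+IL4, 10 with IFNg and 19 in untreated cells. Near 16.8% of all genes there was a JUNB peak with IFNg+IL4, near 20.7% with IFNg and near 25.2% in untreated cells. With IFNg+IL4 there were 3 at Runx1, 3 at Mitf and 1 at Tfec; with IFNg 2 at Runx1, 5 at Mitf and 3 at Spi1. Untreated cells had 7 at Runx1, 7 at Mitf, 3 at Spi1 and 1 each at Maf and Tfec. Spi1 thus had no JUNB peak with IFNg+IL4. Its 3 peaks with IFNg were low in that list, at rank 5610, 6726 and 7134 of 7428. With equal numbers of strongest peaks Spi1 had no JUNB site in either of these 2 lists. Only 11 of the 19 untreated peaks had a −log10 q of at least 2. At a −log10 q of at least 5 the order turned, with 6 peaks for IFNg+IL4, 8 for IFNg and 5 for untreated cells. The genome turned the same way at that limit. For IFNg against untreated cells, 59.7% of its sites were then in the IFNg list only and 9.08% in the untreated list only. For IFNg+IL4 against untreated cells these shares were 49.0% and 16.7%.

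When IFNg+IL4 was set against untreated cells, 1 JUNB site was in the IFNg+IL4 list only, 5 in both and 14 in the untreated list only, so 25.0% were shared (interval 8.66 to 49.1%). Over the genome 31.3% were shared, 17.9% were in the IFNg+IL4 list only and 50.8% in the untreated list only. With the untreated list held to a −log10 q of at least 2, 5 of 12 sites were shared (41.7%, against 36.1% over the genome), and at 5 or more in both lists 4 of 6 (66.7%, against 34.2%). Between IFNg and untreated cells, 3 sites were in the IFNg list only, 6 in both and 13 in the untreated list only (27.3% shared, interval 10.7 to 50.2%), with 25.0% and 39.9% of the genome's sites in one list only. At a −log10 q of at least 5 in both lists, 4 of 8 were shared (50.0%, against 31.2% over the genome). Between IFNg+IL4 and IFNg, 2 were in the IFNg+IL4 list only, 5 in both and 5 in the IFNg list only (41.7% shared, interval 15.2 to 72.3%), with 11.4% and 33.8% of the genome's sites in one list only.

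JUNB was listed in all 3 states at 4 sites, 2 at Runx1 and 2 at Mitf. The strongest JUNB peak near the 5 genes was in chr16:92620680-92621566 at Runx1, at rank 207 of 9229 in untreated cells, with rank 2283 of 5556 for IFNg+IL4 and 5472 of 7428 for IFNg. In chr16:92675567-92676209, also at Runx1, JUNB had folds of 12.1 (IFNg+IL4), 10.9 (IFNg) and 12.5 (untreated). In chr6:97818043-97818589 at Mitf they were 9.01, 9.27 and 9.22 in the same order. All 3 of these sites held STAT6 in both lists and CEBPB in at least 1 list. The fourth, chr6:97855415-97856108 at Mitf, had STAT6 and JUNB alone, with JUNB folds of at most 5.1 in any state. The untreated JUNB peaks absent with IFNg+IL4 lay at a median of 62.3% of the way down their list, and the 5 that were kept at 3.38%.

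**Figure D3:**
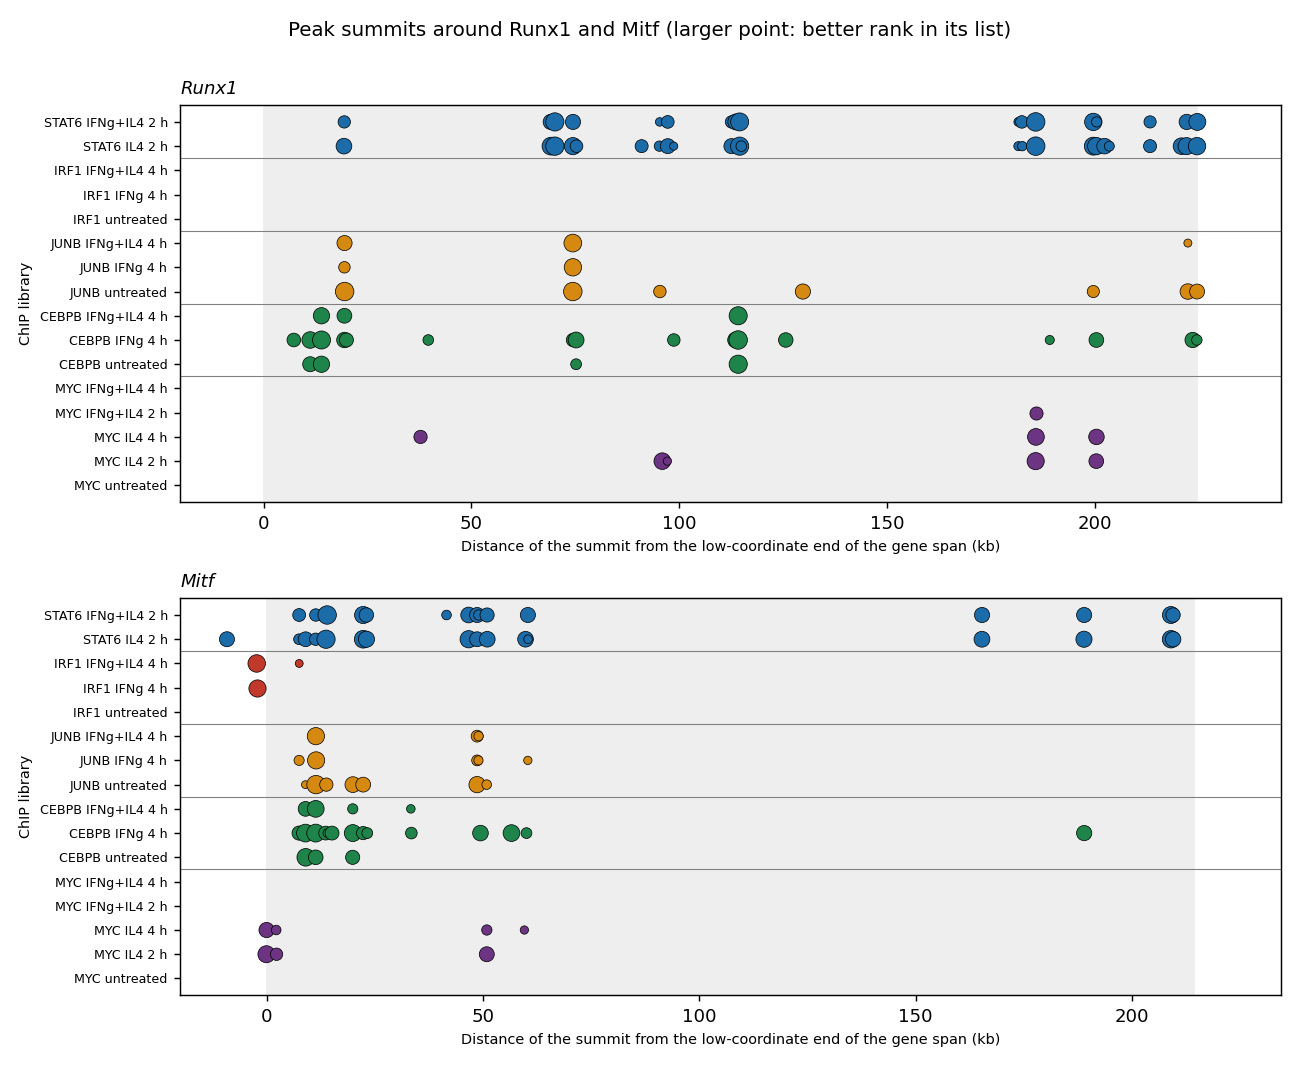
Summits of all peaks near Runx1 and Mitf by library (rows, 1 library each), as distance in kb from the low-coordinate end of each gene span (grey). A larger point has a better rank in its own list; IRF1 is listed at Mitf only, and of the 25 Mitf sites 21 lie up to 60.33 kb from the low end.

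Among the factors CEBPB had the largest difference in peak count between treatments near the 5 genes, with 12 peaks for IFNg+IL4, 40 for IFNg and 10 for untreated cells. A CEBPB peak lay near 22.4% of all genes with IFNg+IL4, 48.2% with IFNg and 20.7% in untreated cells. With IFNg+IL4 there were 4 at Mitf, 3 at Runx1, 3 at Tfec and 2 at Spi1. IFNg gave 14, 16, 4 and 6 at the same genes and untreated cells 3, 4, 1 and 2. The lists moved the same way as a whole, with 6278 peaks for IFNg+IL4, 21499 for IFNg and 5540 for untreated cells.

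In the pair IFNg+IL4 against IFNg, no CEBPB site was in the IFNg+IL4 list only, 12 were in both and 28 in the IFNg list only, so 30.0% were shared (interval 16.6 to 46.5%), against 28.0% over the genome. Over the genome 0.739% were in the IFNg+IL4 list only and 71.3% in the IFNg list only. From IFNg and untreated cells together, 30 were in the IFNg list only, 10 in both and none in the untreated list only (25.0% shared, interval 12.7 to 41.2%), beside 74.4% and 0.0372% of the genome's sites. For IFNg+IL4 against untreated cells, 4 were in the IFNg+IL4 list only, 8 in both and 2 in the untreated list only (57.1% shared, interval 28.9 to 82.3%), beside 27.0% and 17.3% of the genome's sites.

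The shares were higher between lists of equal length. With each pair cut to the same number of strongest peaks, 9 of 15 sites were shared between IFNg+IL4 and IFNg (60.0%, against 64.0% over the genome) and 9 of 12 between IFNg and untreated cells (75.0%, against 64.6%). The 28 IFNg peaks without an IFNg+IL4 peak lay at a median of 54.6% of the way down the IFNg list, and the 12 with one at 10.4%. Tfec kept 3 of its 4 IFNg sites with IFNg+IL4, Runx1 3 of 16, Mitf 4 of 14 and Spi1 2 of 6.

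The strongest CEBPB peak near the 5 genes was inside Spi1, in chr2:91098096-91098704, where no other factor was listed. It had rank 56 of 6278 with IFNg+IL4, rank 50 of 21499 with IFNg and rank 131 of 5540 in untreated cells, with folds of 33.9, 60.0 and 26.5. It was near the top of every CEBPB list. In all, 8 sites were in the 3 CEBPB lists, 3 at Mitf, 2 each at Spi1 and Runx1 and 1 at Tfec. At Runx1 the site chr16:92714826-92716245 had CEBPB at rank 453 with IFNg+IL4, 539 with IFNg and 327 in untreated cells, and STAT6 at rank 1837 with IFNg+IL4 and 1538 with IL4. In chr6:97815699-97816143 at Mitf CEBPB had folds of 8.71, 20.3 and 16.2 with IFNg+IL4, with IFNg and in untreated cells.

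MYC peaks near the 5 genes were listed with cytokine only. Of the 15 MYC sites 6 were at Spi1, 5 at Runx1 and 4 at Mitf. There were 3 with IFNg+IL4 at 4 h, 4 with IFNg+IL4 at 2 h, 13 with IL4 at 4 h, 13 with IL4 at 2 h and none in untreated cells. The shares of all genes near a MYC peak were 22.6%, 20.9%, 44.8%, 51.1% and 4.72% in the same order. Spi1 had 3, 3, 6 and 6 of the peaks in the 4 cytokine lists, Runx1 0, 1, 3 and 4 and Mitf 0, 0, 4 and 3. Maf and Tfec had none.

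In the pair IFNg+IL4 against IL4 at 4 h, no MYC site was in the IFNg+IL4 list only, 3 were in both and 10 in the IL4 list only (23.1% shared, interval 5.04 to 53.8%), beside 30.0% shared, 2.11% and 67.8% over the genome. At 2 h none was in the IFNg+IL4 list only, 4 in both and 9 in the IL4 list only (30.8% shared, interval 9.09 to 61.4%), beside 20.6% shared, 0.617% and 78.8% over the genome. All 3 sites shared at 4 h were at Spi1, and no Mitf site was in either IFNg+IL4 list. With equal numbers of strongest peaks 3 of 4 sites were shared at 4 h (75.0%) and 4 of 5 at 2 h (80.0%), beside 50.5% and 50.8% over the genome. The IL4 peaks that were absent with IFNg+IL4 lay at a median of 74.2% (4 h) and 53.3% (2 h) of the way down their lists, and the shared ones at 13.3% and 11.9%.

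Between the times, 3 sites were in the IL4 4 h list only, 10 in both and 3 in the IL4 2 h list only (62.5% shared, interval 35.4 to 84.8%), beside 8.32% and 34.4% of the genome's sites in one list only. With IFNg+IL4 none was in the 4 h list only, 3 in both and 1 in the 2 h list only (75.0% shared, interval 19.4 to 99.4%), beside 32.4% and 24.2%. Against untreated cells, all 13 sites with IL4 at 2 h and all 4 with IFNg+IL4 at 2 h were in the cytokine list only. Over the genome 96.4% and 84.3% of sites were so, and 0.0% and 0.785% were in the untreated list only. The untreated MYC list had 495 peaks.

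**Figure D4:**
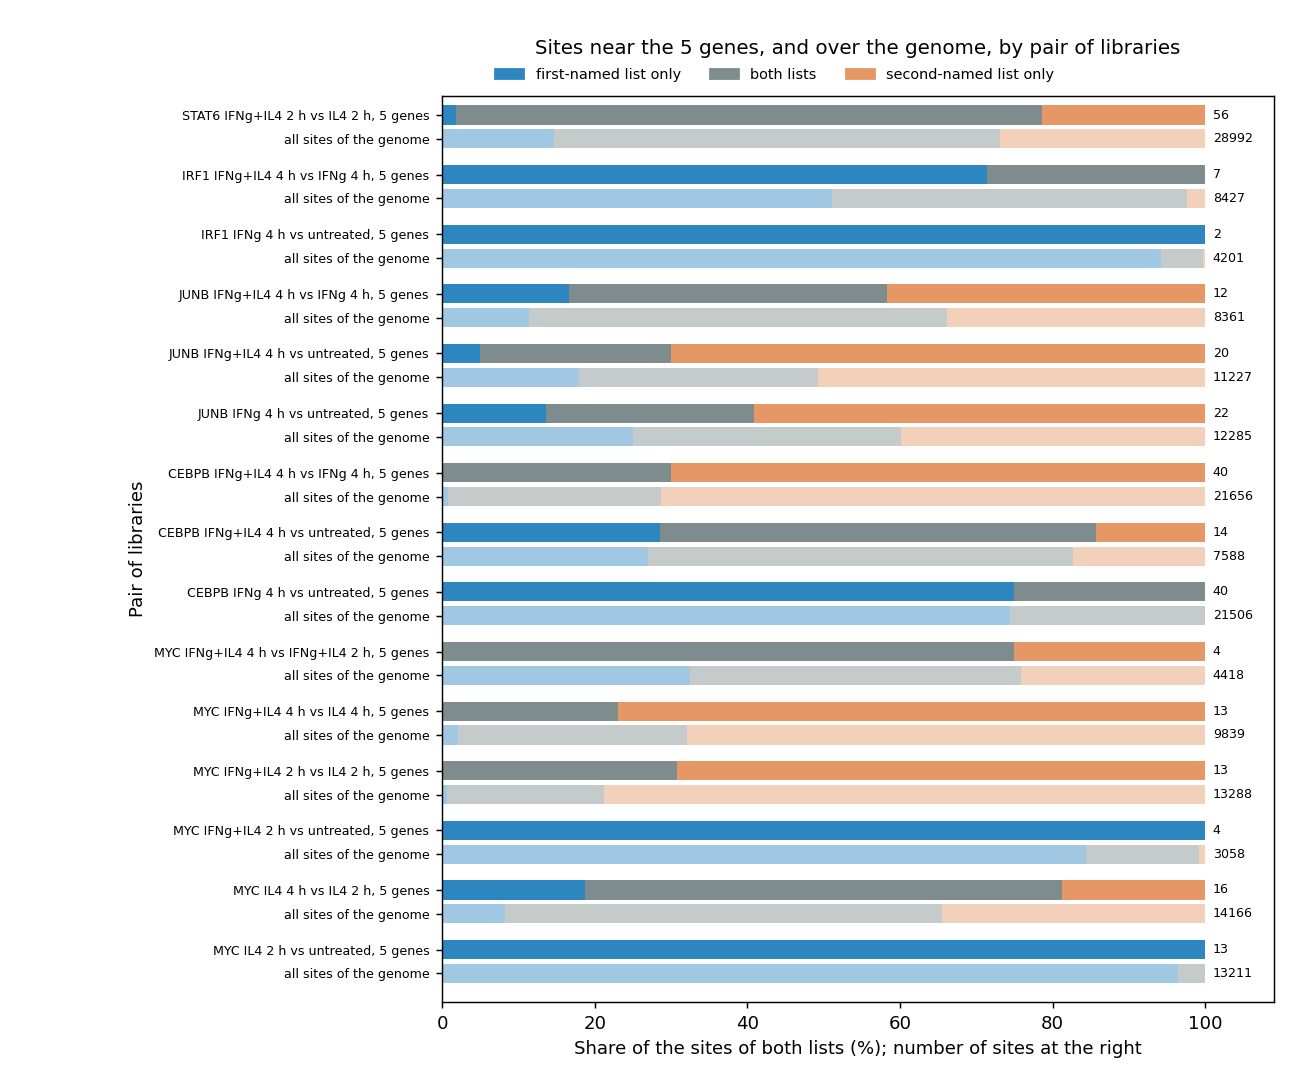
Shares of sites (%) in the first-named list only, in both lists and in the second-named list only, for each of 15 pairs of libraries, with the sites near the 5 genes above those of the whole genome (paler) and the number of sites at the right. No CEBPB or MYC site near the genes is in an IFNg+IL4 list without being in the matching IFNg or IL4 list. Few sites of the genome are, 0.739% for CEBPB and 2.11% (4 h) and 0.617% (2 h) for MYC. Of the STAT6 sites 76.8% are in both lists, against 58.5% over the genome.

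The site with the most lists near the 5 genes was at Spi1, chr2:91082723-91083341, 0.69 kb inside the low-coordinate end of its span. It was in 11 lists, those of STAT6, CEBPB and MYC in every cytokine state mapped, untreated CEBPB, and JUNB with IFNg and in untreated cells. CEBPB folds there were 9.72 with IFNg+IL4, 21.4 with IFNg and 7.6 in untreated cells. MYC folds were 9.3 (IFNg+IL4, 4 h), 5.67 (IFNg+IL4, 2 h), 6.88 (IL4, 4 h) and 10.9 (IL4, 2 h). No IRF1 peak was in it. The span covers all annotated transcripts, and the start of the main Spi1 transcript was not located here, so a place near the low-coordinate end need not be at that start. A site further along the span, chr2:91096585-91096854 at 14.34 kb, had STAT6 with IL4, CEBPB with IFNg and MYC with IL4 at 4 h and 2 h. JUNB was listed there in untreated cells, but with a −log10 q of 0.00815, at rank 8304 of 9229.

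The other Spi1 sites shared by all 4 cytokine MYC lists were chr2:91081102-91081509, 1.09 kb below the span, and chr2:91070090-91070963, 11.87 kb below it. In the first, MYC had its strongest peak near the 5 genes, at rank 540 of 9645 with IL4 at 4 h and 15.3-fold. Its rank was 1034 of 3402 with IFNg+IL4 at 4 h, 754 of 3034 with IFNg+IL4 at 2 h and 1542 of 13211 with IL4 at 2 h. The second was in 9 lists of 4 factors and lay 0.157 kb from a start of the predicted gene Gm39874, the nearest annotated start.

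MYC met RefSeq starts at Mitf and Runx1 with IL4 alone. The Mitf first start lay in the site chr6:97806776-97807138, listed for MYC with IL4 at 4 h (rank 3869 of 9645) and 2 h (rank 2639 of 13211) and for no other factor. The Runx1 downstream start lay in chr16:92697253-92697529, listed for MYC with IL4 at 2 h only, at rank 3278. Neither window holds the E-box letters searched. MYC peaks overlapped 15.9% of all RefSeq windows with IL4 at 4 h and 19.4% at 2 h, and 5.75% and 5.39% with IFNg+IL4 at 4 h and 2 h.

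Other genes of the lineage and of the same families gave a frame for these counts. Of 10 other macrophage lineage factors, among them Cebpa, Irf8 and Zeb2, 9 had a STAT6 peak with IFNg+IL4 and 8 with IL4, and they had peaks in a median of 9.5 lists. Of 11 relatives of the 5 genes, such as Spib, Runx2 and Tfeb, 8 had a STAT6 peak with IFNg+IL4 and 9 with IL4, with a median of 8 lists. Of 10 regulators of other lineages, among them Pax5, Gata3 and Sox2, 2 had one with IFNg+IL4 and 5 with IL4, with a median of 1 list. Over all genes the STAT6 shares were 46.0% with IFNg+IL4 and 49.8% with IL4, with a median of 4 lists. With IL4 the regulators of other lineages were thus near the share of all genes. The 5 genes themselves had a median of 11 lists and a median span of 67.5 kb, against 7.01 kb, 12.5 kb and 33.9 kb for the 3 lists. For MYC with IL4 at 4 h the counts were 8 of 10 lineage factors, 10 of 11 relatives and 1 of 10 regulators of other lineages, beside 3 of the 5 genes and 44.8% of all genes. With IL4 at 2 h they were 9, 10 and 4, beside 3 of the 5 genes and 51.1% of all genes.

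Genes with the most similar pattern of peak counts over the 16 lists were found by Pearson's r, as a description. The lists differ in length, which moves all genes together. For Tfec they were Mrc1, the mannose receptor gene (r = 0.981), and Fam110b (0.979). For Spi1 they were Mcfd2 (0.945), Slc43a2 (0.943) and Nutm1 (0.939), for Runx1 Pde4d (0.987), Pip4k2a (0.985) and Snx2 (0.982), and for Mitf Ankrd11 (0.987), Lrp12 and Slc25a18 (both 0.983). The values for Maf were lowest, with Ints9 at 0.901, Chchd3 at 0.881 and Eps15l1 at 0.88, from 6 peaks.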

How the data were processed

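ChIP-seq peak lists of 17 libraries were used, 16 ChIP libraries for 5 factors and 1 input library, with 1 library per combination of factor, treatment and time. Per the submitters' processing notes, reads were handled with Bowtie2 2.2.6 and MACS2 2.1.0.20150731 on mm10/GRCm38; their settings are not given in these sources. The deposited lists have 10 columns and no header, and each came from a single library. The deposited fold enrichment is a ratio at the summit to a background, and what served as control is not given in these sources. The deposited −log10 p ordered peaks inside one list, the deposited −log10 q filtered them, and the deposited score was not used. To name the strongest peak of a factor, −log10 q was compared across the lists of that factor. The −log10 p and −log10 q depend on depth, which is unknown here, so a missing peak is not shown to be missing binding.

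Only peaks on the autosomes (1 to 19), X and Y entered, and those overlapping an input peak were removed, between 0 and 39 per list. Gene spans and promoter windows came from RefSeq tables of GRCm38.p6. Peaks were merged into sites when they overlapped by 1 bp, and sites in one or both lists were counted for 15 pairs, near the genes and over the genome, with exact Clopper-Pearson 95% intervals. The counting was tested on simulated lists. Motifs were searched in promoter windows only, since no genome sequence was used here. Named sites were, per gene, the 3 in the most lists, and per factor its strongest peak; sites at RefSeq starts and sites chosen for a strong rank were added after their values were seen. Likeness was computed over genes with at least 10 peaks that share no peak with the gene; the 3 most alike are named, less an item that is not reported here. The genes, lists and comparisons were chosen with earlier results of these data known. Alternatives were windows of 5 and 50 kb, a −log10 q of at least 5, summits within 150 bp in place of overlap, and input peaks kept; equal numbers of strongest peaks and the q limit on untreated JUNB were added after seeing the data. Python 3.11.15, pandas 2.3.3 and scipy 1.17.1 were used.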

Additional observations from a re-analysis of the deposited data

How the results depend on the processing

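The share of sites in both lists stayed inside the main interval of each of the 15 pairs with windows of 5 and 50 kb and with summits within 150 bp. Keeping input peaks could not change it, since none lay near the genes. At a −log10 q of at least 5 it stayed inside as well, except for JUNB with IFNg+IL4 against untreated cells, where it was 66.7% and not 25.0%. That setting left 5 of 19 untreated JUNB peaks near the genes, and the 50 kb window raised the JUNB peaks with IFNg+IL4 to 12, against 7. With equal numbers of strongest peaks, an alternative chosen after seeing the data, the share was 100.0% for IRF1 (IFNg+IL4 against IFNg), 75.0% for CEBPB (IFNg against untreated), 60.0% for CEBPB (IFNg+IL4 against IFNg), and 75.0% and 80.0% for MYC (IFNg+IL4 against IL4 at 4 h and 2 h). These lists are shorter by construction. The 3 pairs that include an untreated IRF1 or MYC list then had no site near the genes. Distinct sites numbered 75 to 94 over these settings, against 81. No paired analysis was possible because each group is 1 library, and no replicate could be left out.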
